A study of Mus musculus with 6 samples.

Results

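Type I interferon antiviral effectors were examined in cultured mouse lymphatic endothelial cells (LEC), 40 genes listed by symbol, with a gene's value taken from its brightest probe set among those annotated to that gene alone. Of the 40 genes 38 were measured this way, out of 18193 genes with such a probe set, and 36 of them exceeded the filter on low values, out of 12954 genes tested. Rigi was matched as Ddx58, the older symbol of the same gene in the annotation. Isg15 has a probe set that it shares with another gene, and Ifi44 was not analysed here. Mx2 and Ifitm1 were measured but lay below the filter.

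Tumour LEC came from C57BL/6 mice that carried fibrosarcomas of the T241 line with VEGF-C, a lymphatic growth factor, and GFP, a fluorescent marker. For the normal group, dermal LEC were taken from the tails of 8-week-old C57BL/6 females. Sex and age of the tumour-bearing mice were not used here, and tissue of origin, tumour or tail dermis, differed between the groups along with the presence of a tumour. Both kinds of cell were grown on gelatin in an endothelial medium, and selection used antibodies to LYVE-1, a hyaluronan receptor of lymphatic endothelium. The text on the tumour cells runs into that on skin, so their last steps are not certain. Most tumour cells were lifted off the cultures first, per the labels, and the tumour arrays are titled as tumour cells although their source is given as LEC. Each group had 3 Affymetrix arrays, hybridised with RNA amplified from 50 ng, and whether these were separate cultures or animals is not stated, so that p-values measure only the spread between arrays.

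Type I interferons are secreted when a cell detects foreign or misplaced nucleic acid. They bind the receptor made of IFNAR1 and IFNAR2, whose kinases start a signal that ends at interferon-stimulated response elements in promoters, where a complex that includes IRF9 binds. The genes so induced sense RNA, degrade it, block its translation, or stop viruses at entry and release, and many also raise the cell's own sensitivity to interferon. In C57BL/6 mice, as in most laboratory strains, the Mx1 gene carries a deletion and makes no working antiviral protein.

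With all 6 arrays, 34 of the 36 tested genes read higher on average in tumour LEC, and the median difference, tumour minus normal, was 1.23 on the log2 scale. None of the 36 passed the test across all genes (limma, Benjamini-Hochberg adjusted p under 0.05), in a comparison in which 0.216% of all genes were called, 6 higher (0.0463%) and 22 lower (0.17%). The smallest adjusted p among them was 0.0757, and 19 had an unadjusted p under 0.05, all higher, against 6.66% of all genes on that side and 8.83% on the lower side. With array quality weights Sp100 and Oas2 passed, where 0.965% of all genes were called higher. Those weights were 3.7 for tumour replicate 2 against 0.45 and 0.31 for tumour replicates 1 and 3, so 1 array dominated the tumour group. Leaving out tumour replicate 1 brought the count of 19 to 9, leaving out tumour replicate 3 to 11, and leaving out normal replicate 1 to 12. Over all tested genes 53.1% of the differences were above 0 and the median was 0.03. A difference of at least 2-fold upwards was seen for 23 of the 36 genes and for 3.84% of all genes. For the 36 genes this count was 14 when normal replicate 2 was omitted, 17 when tumour replicate 1 was, and 15 with array weights. A difference as large downwards was seen for 0 of the 36 and for 6.76% of all genes.

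For 21 of the 36 genes every tumour array read above every normal array, and for 0 every tumour array read below. The same upward pattern held for 20.9% of all tested genes, and for 13.8% of the 11105 that exceeded background on some array. A downward pattern held for 11.6% of all tested genes. Background here means the highest value on an array among 27 control probe sets for bacterial RNA, which lay between 3.40 and 3.71. For Mx1 and Oas3 among the 21 genes, the nearest values of both groups were at background. After median centring of the arrays, 17 of the 36 genes kept fully separated groups upwards, while the percentage over all genes was 11.5% upwards and 16.1% downwards. Tumour replicate 3 had the highest array median over all probe sets, 3.15 against 2.99 to 3.02 on the other arrays, before this step. The genes lost from this count were Adar, Mx1, Rtp4 and Xaf1.

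**Figure D1:**
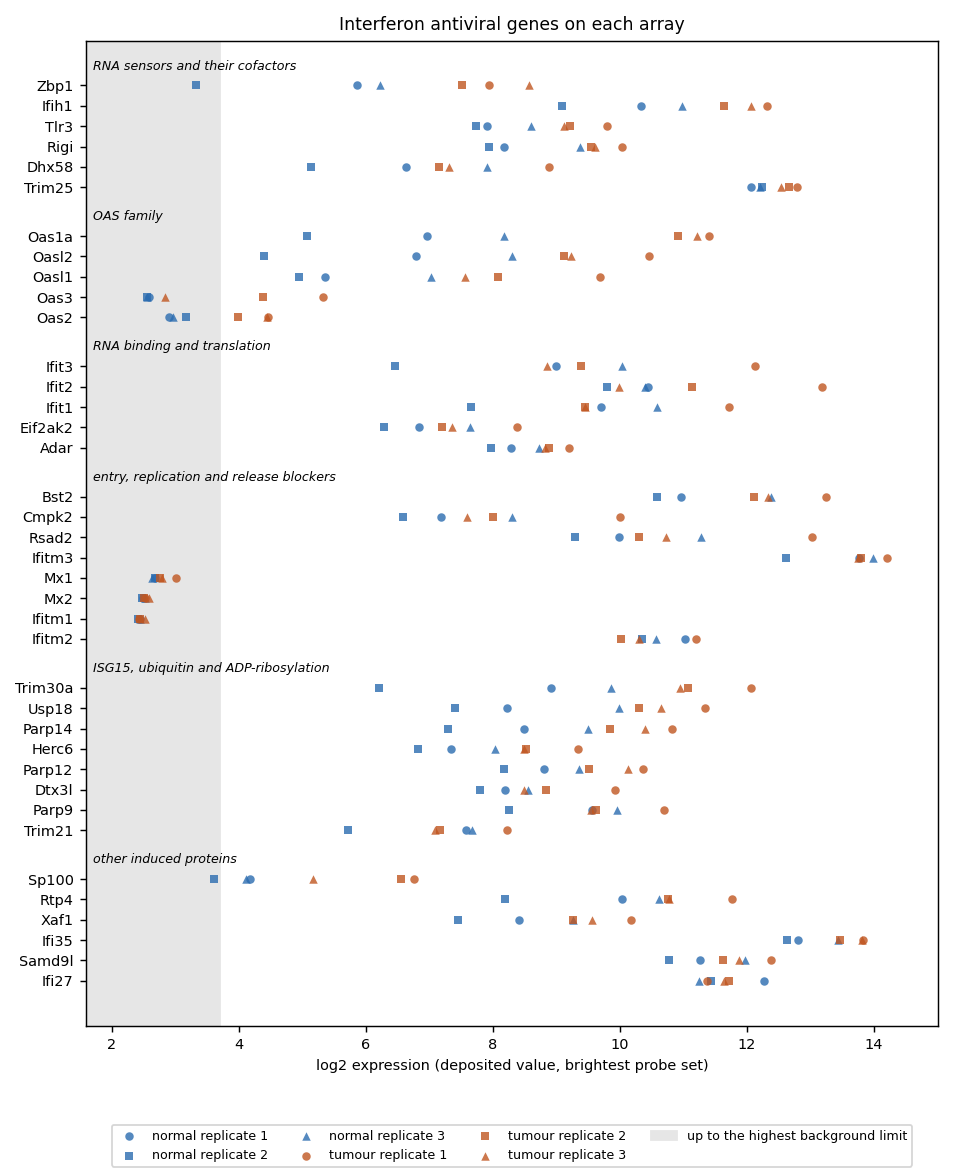
Log2 expression of the 38 measured interferon antiviral genes on each array, grouped by role. Blue marks are the 3 normal arrays and orange marks the 3 tumour arrays, with a marker shape per replicate number, and the grey band reaches to 3.71, the highest background limit. Normal replicate 2 is the leftmost mark for most genes and tumour replicate 1 the rightmost, and Oas1a has the widest gap between the groups.

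The arrays of each group were not alike for these genes. Each gene's values were set against that gene's average over the 6 arrays, and the median of these deviations was -0.59, -1.35 and 0.09 for normal LEC in the order of the replicate numbers. For tumour LEC it was 1.27, 0.24 and 0.20. Normal replicate 2 was the lowest of all 6 arrays for 30 of the 36 genes, a rank it held for 14.04% of all tested genes. Tumour replicate 1 was the highest for 34 genes, against 20.1% of all tested genes. Normal replicate 3 lay within reach of the tumour cells, at or above the lowest tumour array for 14 genes and at or above the tumour mean for 6.

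The step from normal replicate 2 to normal replicate 3 was of the same order as the step between the groups. Its median over the 36 genes was 1.56, and normal replicate 3 was the higher for 31 of them, against 40.3% of all tested genes. Normal replicate 3 in turn read above tumour replicate 2 for 12 genes and above tumour replicate 3 for 14, with median differences of -0.17 and -0.26. Over all tested genes it read above them for 41.7% and 43.7%. The range among the normal arrays exceeded the difference between the groups for 24 of the 36 genes, a share of all tested genes that was 59.1%. The median SD of the members was 0.82 among normal arrays and 0.56 among tumour arrays (n = 3 each), against 0.24 and 0.30 for all genes above background on some array. The median difference of the 36 genes was 0.80 when tumour replicate 1 was left out, 0.81 when normal replicate 2 was, and 1.63 when normal replicate 3 was.

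**Figure D2:**
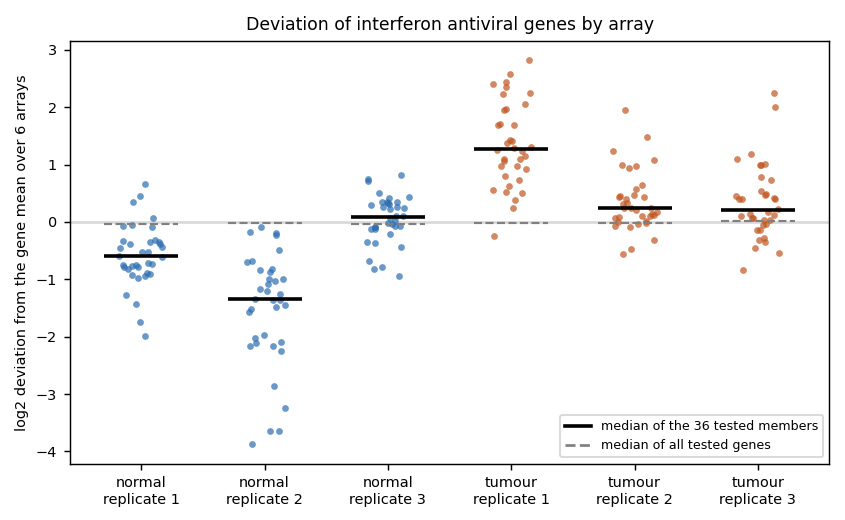
Deviation of each of the 36 tested genes from its mean over the 6 arrays, in log2 units, by array. Points are genes, black bars their median (-1.35 in normal replicate 2, 1.27 in tumour replicate 1) and dashed grey bars the median of all 12954 tested genes, which stays near 0 on every array.

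Promoter letters were set beside these values because of the response element described above. The genes were listed by symbol, and these letters were not used to choose them. RefSeq windows (build GRCm38.p6) from 250 bases before to 50 bases after an annotated start were found for 30 of the 40 genes. The core of the response element, a pair of GAAA repeats with any 2 bases between them, on either strand, was present in a window of 14 of the 30 genes (46.7%) and of 3.99% of all 27025 genes with a window. The longer form, 3 GAAA repeats spaced in the same way, was present in 4 of the 30 genes (13.3%), Isg15, Oas1a, Trim21 and Bst2, and in 0.133% of all genes. The letters TTCNNNGAA, to which STAT dimers bind, were found in 7 of the 30 genes (23.3%) and in 9.55% of all genes, and in Bst2 such a match overlaps the response element. The 150 bases before the start are shown for 3 genes whose groups did not overlap (Oas1a, Oas3 and Trim30a) and 3 whose groups did (Ifit1, Rsad2 and Bst2), 5′ to 3′ along the gene, with matches to the pair of GAAA repeats, or to its reverse complement, in capitals.
Oas1a (chr5:120907526-120907675, minus strand): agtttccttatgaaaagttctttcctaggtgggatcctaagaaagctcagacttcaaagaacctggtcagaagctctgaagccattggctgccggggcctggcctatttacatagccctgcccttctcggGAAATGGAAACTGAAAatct
Oas3 (chr5:120777660-120777809, minus strand): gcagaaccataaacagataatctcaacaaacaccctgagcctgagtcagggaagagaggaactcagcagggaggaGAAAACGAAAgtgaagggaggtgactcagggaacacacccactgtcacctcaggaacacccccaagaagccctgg
Trim30a (chr7:104465194-104465343, minus strand): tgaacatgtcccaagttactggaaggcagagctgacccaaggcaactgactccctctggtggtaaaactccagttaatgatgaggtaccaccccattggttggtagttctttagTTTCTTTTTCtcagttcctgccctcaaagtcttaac
Ifit1 (chr19:34640739-34640888, plus strand): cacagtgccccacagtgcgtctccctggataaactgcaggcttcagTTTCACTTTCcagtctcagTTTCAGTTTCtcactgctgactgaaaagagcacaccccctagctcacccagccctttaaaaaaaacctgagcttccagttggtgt
Rsad2 (chr12:26456453-26456602, minus strand): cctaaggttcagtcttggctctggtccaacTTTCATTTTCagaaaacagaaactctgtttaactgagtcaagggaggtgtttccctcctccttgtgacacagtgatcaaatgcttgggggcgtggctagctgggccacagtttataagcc
Bst2 (chr8:71537473-71537622, minus strand): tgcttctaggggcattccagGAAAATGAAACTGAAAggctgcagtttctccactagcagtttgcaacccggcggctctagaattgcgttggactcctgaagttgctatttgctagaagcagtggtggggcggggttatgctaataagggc
In Oas1a the pair of overlapping matches runs from position -20 to -5 relative to the start, and in Bst2 from -130 to -115. Ifit1 has separate matches from -104 to -95 and from -85 to -76. Of the 13 tested genes with a match, 5 had groups that did not overlap and the median difference was 1.23. Of the 14 tested genes with a window and no match these were 10 and 1.22. A match shows only that the letters are there.

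RNA sensors opened the order of roles, and all 6 of them read higher on average in tumour LEC, with groups that did not overlap for 5. Ifih1 encodes MDA5, a cytosolic sensor of long double-stranded RNA. It read 10.33, 9.09 and 10.97 in normal replicates 1, 2 and 3 and 12.31, 11.64 and 12.06 in tumour replicates 1, 2 and 3. All tumour arrays were above the normal arrays, by 1.87 on average (SE 0.50, adjusted p = 0.200, limma), a 3.66-fold difference. In the same order of replicates, Rigi, which senses RNA with a free triphosphate end, read 8.17, 7.94 and 9.36 in normal LEC and 10.04, 9.54 and 9.60 in tumour LEC. Its groups were apart by 0.17 at their nearest, between normal replicate 3 and tumour replicate 2, and the mean difference was 1.23 (SE 0.41, adjusted p = 0.254, limma). A dimmer probe set of Rigi above background gave 1.42 with overlapping groups.

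Tlr3, a receptor for double-stranded RNA in endosomes, read 7.91, 7.74 and 8.60 in normal LEC and 9.79, 9.21 and 9.12 in tumour LEC. The difference was 1.29 (SE 0.30, adjusted p = 0.154, limma), and the normal arrays stayed below the tumour arrays by at least 0.53. The dimmer probe set of Tlr3 gave 1.02 with overlapping groups. Zbp1 binds nucleic acid in the Z conformation and can start cell death. It read 5.85, 3.32 and 6.23 in normal LEC, where replicate 2 was at background, and 7.94, 7.51 and 8.57 in tumour LEC. The difference was 2.87 (SE 0.82, adjusted p = 0.216, limma), and its dimmer probe set gave 2.41. Its highest array was tumour replicate 3, whereas tumour replicate 1 was the highest for 34 of the 36 genes.

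Trim25, a ubiquitin ligase that assists RIG-I, showed a small and even step, from 12.06, 12.23 and 12.20 to 12.79, 12.66 and 12.53. Its difference of 0.49 (SE 0.12, adjusted p = 0.170, limma) was the smallest among the sensors and cofactors, and the normal arrays spanned only 0.17. Dhx58, or LGP2, which modulates the other helicases, had overlapping groups at 6.64, 5.14 and 7.91 against 8.88, 7.14 and 7.31. Normal replicate 3 exceeded 2 of the 3 tumour arrays for Dhx58, and its difference of 1.21 had an SE of 0.83.

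OAS enzymes sense double-stranded RNA and switch on RNase L, and their role group here also holds the OAS-like genes Oasl1 and Oasl2. It had the highest median difference of the role groups, 2.67 over 5 genes, which is the value of Oasl1. The groups did not overlap for any of the 5, although for Oas3 the nearest values were at background. Oas1a read 6.97, 5.08 and 8.17 in normal LEC and 11.40, 10.92 and 11.21 in tumour LEC. The tumour arrays lay within 0.49 of each other while the normal arrays spanned 3.09, and the nearest pair was 2.74 apart. The mean difference of 4.44 (SE 0.77, adjusted p = 0.0957, limma) is 21.7-fold, the largest among the 36 genes. Oas1a belongs to a cluster of near-identical genes, and probes do not always tell such genes apart. Oas1c of the same cluster, measured by another probe set, read 5.57, 4.97 and 6.45 in normal LEC and 7.65, 6.72 and 6.23 in tumour LEC, so that its groups overlapped.

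Oas2 had the smallest p of the whole set on a dim signal. Its normal arrays, at 2.90, 3.17 and 2.97, were all at background, and its tumour arrays, at 4.46, 3.99 and 4.45, were all above it. The measured difference was 1.29 (SE 0.17, adjusted p = 0.0757, limma), and against the background limit Oas2 was at least 1.82-fold higher. Oas3 was at background in normal LEC (2.58, 2.56 and 2.56) and exceeded it on 2 of the 3 tumour arrays, which read 5.33, 4.37 and 2.84. The measured difference was 1.61 (SE 0.62). No least fold difference is given for Oas3, because tumour replicate 3 was itself at background.

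The OAS-like genes Oasl1 and Oasl2 encode relatives of OAS that carry ubiquitin-like domains, and Oasl1 also represses translation of Irf7. Oasl1 read 5.36, 4.95 and 7.03 in normal LEC and 9.69, 8.08 and 7.56 in tumour LEC, a difference of 2.67 (SE 0.77, adjusted p = 0.220, limma). Oasl2 read 6.78, 4.40 and 8.30 against 10.45, 9.12 and 9.24, a difference of 3.11 (SE 1.03, adjusted p = 0.255, limma), or 8.65-fold. Both were ordered alike among the normal arrays, with replicate 3 the highest, and the normal arrays of Oasl2 spanned 3.90, the widest normal range of the set.

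Genes that bind RNA or act on translation had a lower median difference, 0.90 over 5 genes, and the groups did not overlap for 1 of them. IFIT proteins recognise RNA that lacks the host's cap methylation and keep it from ribosomes. Ifit1 read 9.70, 7.65 and 10.59 in normal LEC and 11.72, 9.46 and 9.46 in tumour LEC. Normal replicates 1 and 3 were thus above tumour replicates 2 and 3, and the difference of 0.90 (SE 0.98, adjusted p = 0.634, limma) was within the spread between replicates. Ifit3, at 8.99, 6.46 and 10.03 against 12.13, 9.39 and 8.85, and Ifit2, at 10.44, 9.80 and 10.39 against 13.18, 11.13 and 9.99, overlapped too. In all 3 genes tumour replicate 1 was the highest array, and without it the differences were 0.15 for Ifit1, 0.35 for Ifit2 and 0.63 for Ifit3. Without normal replicate 2 those of Ifit1 and Ifit3 were 0.07 and 0.62.

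Adar edits adenosine in double-stranded RNA and thereby keeps the cell's own transcripts from its sensors. It read 8.29, 7.97 and 8.72 in normal LEC and 9.20, 8.88 and 8.82 in tumour LEC, groups that were 0.10 apart at their nearest and overlapped after median centring. Its difference was 0.64 (SE 0.23), whereas its dimmer probe sets gave 0.17 and 0.15 with overlapping groups. Eif2ak2, or PKR, which halts translation by phosphorylating eIF2 alpha, read 6.83, 6.29 and 7.64 against 8.38, 7.20 and 7.35. Its difference of 0.72 (SE 0.46) did not separate the groups.

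Proteins that act on entry, replication or release were the least separated role group. Of 8 genes 6 were tested, 5 of these read higher on average, and the groups of 1, Mx1, did not overlap. Mx1 was at background on all 6 arrays, between 2.64 and 3.01, as were Mx2 and Ifitm1, so that no level can be given for these 3 genes. Ifitm3, which blocks fusion of viruses in endosomes, read 13.75, 12.61 and 13.98 in normal LEC and 14.21, 13.79 and 13.74 in tumour LEC. Apart from normal replicate 2 its arrays lay close together, and the difference was 0.46 (SE 0.39, adjusted p = 0.560, limma), or 0.04 without normal replicate 2. Ifitm2 had the lowest difference of the set at -0.14 (SE 0.36), with 11.03, 10.34 and 10.56 against 11.20, 10.02 and 10.30.

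Bst2, or tetherin, holds budding virions at the cell surface. It read 10.96, 10.58 and 12.38 in normal LEC and 13.24, 12.11 and 12.33 in tumour LEC, and normal replicate 3 was above tumour replicates 2 and 3. The difference was 1.25 (SE 0.55, adjusted p = 0.354, limma). Rsad2 encodes viperin, which makes a chain-terminating nucleotide, and its neighbour Cmpk2 supplies the precursor. Rsad2 read 9.99, 9.29 and 11.28 against 13.01, 10.30 and 10.73, and Cmpk2 7.18, 6.58 and 8.30 against 9.997, 8.00 and 7.60. In both genes normal replicate 3 exceeded tumour replicates 2 and 3, and the differences were 1.16 (SE 0.87) and 1.18 (SE 0.76), or 0.33 and 0.45 without tumour replicate 1.

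Genes of ISG15 conjugation, ubiquitin and ADP-ribosylation had a median difference of 1.30 over 8 tested genes, with groups that did not overlap for 5. Usp18 removes ISG15 from proteins and also binds the receptor chain IFNAR2 to damp signalling. It read 8.23, 7.41 and 9.99 in normal LEC and 11.33, 10.30 and 10.65 in tumour LEC. The groups were 0.31 apart at their nearest and differed by 2.22 (SE 0.70, adjusted p = 0.243, limma), or 4.66-fold. Herc6, the ligase that attaches ISG15 in mice, read 7.34, 6.83 and 8.03 against 9.34, 8.52 and 8.49, a difference of 1.38 (SE 0.39, adjusted p = 0.212, limma). Each of its 3 dimmer probe sets also had groups that did not overlap, with smaller differences of 0.27 to 0.64, although 1 of the 3 was at background on 5 of the 6 arrays.

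Trim30a, a regulator of inflammatory signalling, had the third largest gap between the groups, after Oas1a and Zbp1. It read 8.92, 6.21 and 9.85 in normal LEC and 12.07, 11.07 and 10.94 in tumour LEC. The difference was 3.04 (SE 0.98, adjusted p = 0.247, limma) and its dimmer probe set gave 3.73. Without normal replicate 2 the difference was 1.98. Trim21, an antibody receptor in the cytosol, overlapped at 7.58, 5.72 and 7.66 against 8.22, 7.16 and 7.09, with a difference of 0.50 (SE 0.62) that was -0.13 without normal replicate 2.

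The PARP genes transfer ADP-ribose to proteins, and Dtx3l is the ubiquitin ligase that pairs with Parp9. Parp14 read 8.49, 7.29 and 9.49 in normal LEC and 10.81, 9.85 and 10.39 in tumour LEC, a difference of 1.93 (SE 0.59, adjusted p = 0.235, limma) with separate groups. Parp12 was separate too, at 8.81, 8.18 and 9.35 against 10.37, 9.52 and 10.12, a difference of 1.22 (SE 0.37). The dimmer probe set of Parp14 gave 0.18 with overlapping groups. Parp9 and Dtx3l overlapped, with differences of 0.70 (SE 0.54) and 0.90 (SE 0.42), and their tumour replicate 3 lay below normal replicate 3.

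Among the other induced proteins 5 of 6 tested genes read higher on average and the groups of 4 did not overlap. Sp100, a scaffold protein of nuclear bodies, read 4.17, 3.62 and 4.12 in normal LEC and 6.75, 6.55 and 5.17 in tumour LEC. Unlike most of the set its normal arrays were close together, within 0.56, and the tumour arrays were spread. The normal values of Sp100 were near the background limits, which were 3.40, 3.47 and 3.42 in normal replicates 1, 2 and 3. The difference of 2.19 (SE 0.46, adjusted p = 0.132, limma) is 4.55-fold, and a second probe set, at background on 5 of the 6 arrays, gave 0.37. Ifi35, which binds other interferon-induced proteins, read 12.81, 12.62 and 13.42 against 13.83, 13.47 and 13.80, a difference of 0.75 (SE 0.24), and after quantile normalization its groups overlapped.

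Xaf1, a promoter of apoptosis, and Rtp4, a chaperone of receptors that binds RNA, had narrow gaps. Xaf1 read 8.42, 7.45 and 9.25 against 10.18, 9.26 and 9.56, so that normal replicate 3 and tumour replicate 2 were 0.01 apart, and its difference was 1.30 (SE 0.50). Rtp4 read 10.03, 8.19 and 10.62 against 11.77, 10.76 and 10.77, a difference of 1.49 (SE 0.69), or 0.78 without normal replicate 2. Samd9l, a restrictor of translation, overlapped at 11.25, 10.77 and 11.96 against 12.37, 11.62 and 11.88. Ifi27 went apart from the set: its highest array was normal replicate 1 at 12.27, the other 5 arrays lay between 11.24 and 11.72, and its difference was -0.07 (SE 0.29).

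**Figure D3:**
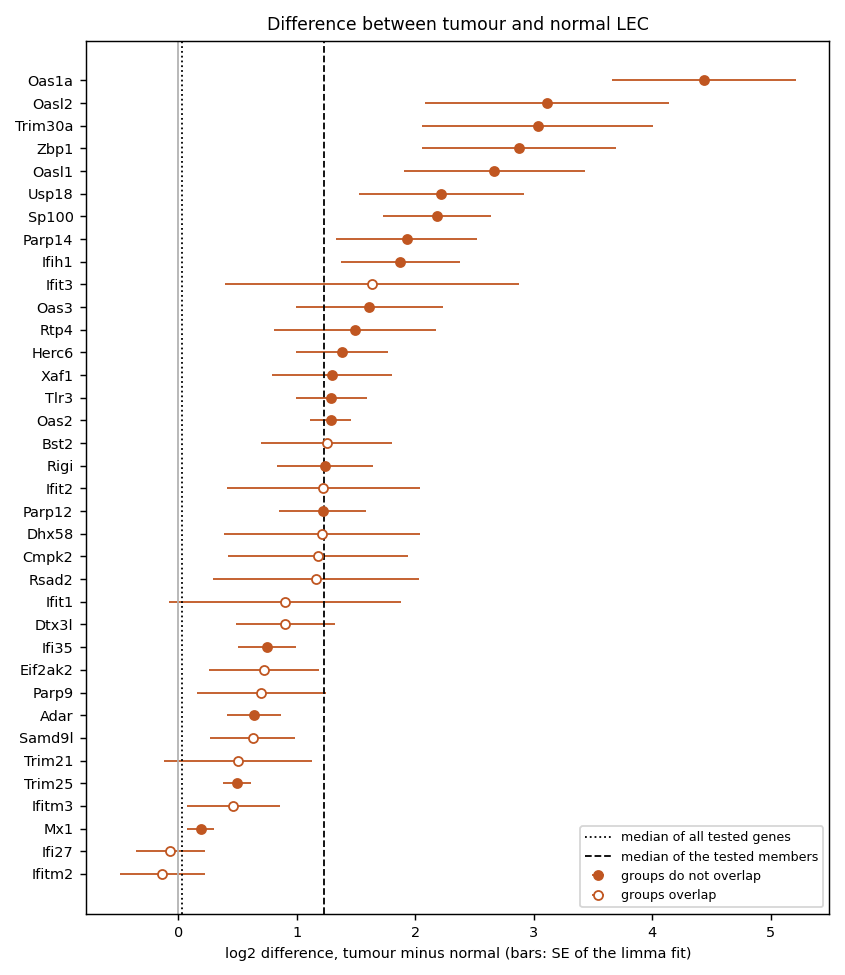
Log2 difference, tumour minus normal, for the 36 tested genes, with bars for the SE of the limma fit. Filled points are the 21 genes whose groups did not overlap and open points the 15 that did. The dashed line is the median of the 36 genes (1.23) and the dotted line that of all tested genes (0.03).

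Other probe sets of the same genes bore on 18 of them. Of 25 such probe sets above background on some array, 24 gave a positive difference. The exception was a probe set of Dhx58 that was at background on 5 of 6 arrays. Some positive differences were near 0 with overlapping groups, among them 0.02 for Eif2ak2, 0.03 for Ifi27 and 0.001 for Xaf1. The probe sets were read on the same 6 arrays and are not further replicates.

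Genes upstream of the effectors were measured on the same arrays. All 8 interferon genes with a probe set of their own, Ifnb1 and Ifng among them, were at background on all 6 arrays. Ifnb1 read 2.61, 2.83 and 2.51 in normal LEC and 2.72, 2.62 and 2.77 in tumour LEC. Of 18 tested genes of receptors and signal transduction none passed the test (limma), and the median difference was 0.47. An unadjusted p under 0.05 was seen for 4, all higher, against 6.66% of all tested genes on that side. Ifnar2 read 9.31, 9.13 and 9.31 in normal LEC and 10.16, 9.65 and 9.70 in tumour LEC, a difference of 0.58 (SE 0.17, adjusted p = 0.227, limma), whereas Ifnar1, the other chain of the receptor, differed by -0.07 (SE 0.14).

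Irf7, the factor that amplifies interferon production and is itself induced by interferon, was lowest in normal replicate 2 and highest in tumour replicate 1, as most effectors were. It read 6.89, 5.28 and 7.74 in normal LEC and 10.14, 7.83 and 8.51 in tumour LEC, a difference of 2.19 (SE 0.84, adjusted p = 0.304, limma). Irf9 and Stat2, partners in the factor that binds the response element, overlapped, with differences of 0.89 (SE 0.43) and 0.86 (SE 0.60). The other genes of this list with the smallest p were Ifngr1 at 0.67 (SE 0.19) and Jak2 at 0.65 (SE 0.23), both with separate groups, and on the lower side Pias1 at -0.20 and Ifngr2 at -0.37.

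Sensors and adaptors upstream of interferon, a list that includes Zbp1, had 0 of 16 tested genes past the threshold (limma) and a median difference of 0.31. An unadjusted p under 0.05 was seen for 4 higher and 1 lower, against 6.66% and 8.83% of all tested genes. Ifi204, a DNA sensor, differed by 2.16 (SE 0.73) and Tbk1, the kinase that activates IRF3, by 0.38 (SE 0.13), while Ddx41, a helicase, was lower by -0.85 (SE 0.26) with separate groups. Rnaseh2b differed by -0.28 and Myd88 by -0.21. Cgas differed by -0.03 and Sting1 by 0.48. A list of 53 further tested interferon-stimulated genes had 47 differences above 0 and a median of 1.05. None of the 53 passed (limma). An unadjusted p under 0.05 was seen for 23, all higher, against 6.66% of all tested genes on that side. The groups did not overlap for 25, all higher, against 20.9% of all tested genes. Psmb9 of the immunoproteasome differed by 3.23 (SE 0.47), Nlrc5, the activator of MHC class I genes, by 3.54 (SE 0.70), and Mlkl, which carries out necroptosis, by 0.75 (SE 0.16). On the lower side Mov10 differed by -0.37, Pml by -0.38 and Lap3 by -0.13.

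Lymphatic markers were present in both groups: Lyve1 read 13.65 to 14.32 in normal and 14.11 to 14.91 in tumour LEC, and Prox1, Pdpn and Flt4 were above background on all arrays, whereas Mmrn1 was at background on all. The 11 tested lymphatic genes had a median difference of 0.09, with 7 above 0 and 4 below, and 0 passed the test (limma). An unadjusted p under 0.05 was seen for 2, both lower, against 8.83% of all tested genes on that side. These 2, chosen after their values were seen, were Foxc2 at -1.74 (SE 0.36) and Nr2f2 at -0.98 (SE 0.35), each with separate groups. Leukocyte markers moved with the effectors in part. Of 22 tested leukocyte and macrophage genes 18 were highest in tumour replicate 1. The summed linear signal of the 24 measured genes was 2434 to 6314 in normal LEC and 3297 to 13412 in tumour LEC, and Aif1, Cx3cr1, Itgam and Spi1 were at background on all arrays. Ptprc, the leukocyte antigen CD45, was above background in tumour replicate 1 alone, at 5.92, and Cd68 of macrophages read 10.88 there, 7.90 and 4.82 in tumour replicates 2 and 3 and 8.45 to 9.57 in normal LEC. The list's median deviation was -0.53, -0.60 and 0.36 in normal replicates 1, 2 and 3, and normal replicate 3 was also the highest of these for the effectors. In tumour replicates 2 and 3 it was -0.39 and -0.62, near normal replicates 1 and 2, while the effectors stood at 0.24 and 0.20 there against -0.59 and -1.35. Fewer cells of a type and less RNA per cell cannot be told apart in such samples.

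Fibroblast markers went the other way. Their median deviation was 4.18 in normal replicate 1, 1.13 in normal replicates 2 and 3 and -2.20 to -1.83 in tumour LEC. Over 19 tested fibroblast genes the median difference was -4.41, with 18 below 0 and 1 above. The groups were separate for 17 lower and 1 higher, against 11.6% and 20.9% of all tested genes. An unadjusted p under 0.05 (limma) was seen for 15 lower and 1 higher, against 8.83% and 6.66%. In the test across all genes 1 fibroblast gene passed, lower in tumour LEC. Of 20 fibroblast genes 1 was at background on all arrays, and their summed linear signal was 16631 to 67565 in normal LEC and 8503 to 13309 in tumour LEC. Pdgfra of fibroblasts read 9.13 to 11.75 in normal and 4.66 to 5.74 in tumour LEC. Pan-endothelial genes read higher in tumour LEC along with the effectors. The median difference over 12 tested genes was 1.02, and 11 were above 0. Of the 12 genes 5 had separate groups, all higher, against 20.9% of all tested genes. An unadjusted p under 0.05 (limma) was seen for 3, all higher, against 6.66%, and 0 of the 12 pan-endothelial genes passed the test. Their median deviation was -1.34, -0.35 and 0.15 in normal LEC and 0.96, 0.49 and 0.53 in tumour LEC. Their summed linear signal was 7831 to 16402 in normal and 21803 to 28301 in tumour LEC, and all 12 were above background on every array. Of 13 measured genes of lymphocytes and plasmacytoid dendritic cells 10 were at background on all arrays, as were 6 of 10 of keratinocytes. The part of these cell types in the effector values was not tested. The fits without single arrays given above included no measure of cell type.

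**Figure D4:**
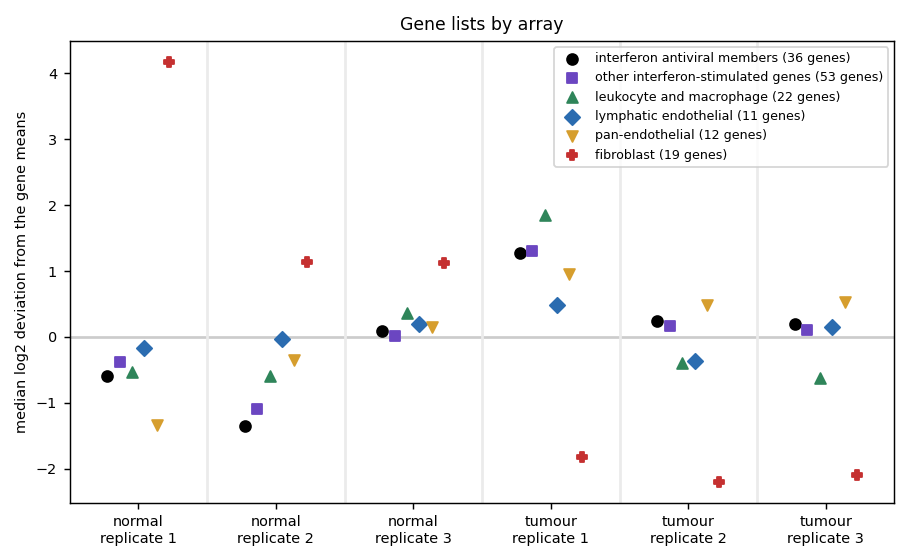
Median log2 deviation from the gene means for 6 gene lists on each array. The effectors (black) and the other interferon-stimulated genes (purple) take similar positions on every array, at 1.27 and 1.31 in tumour replicate 1. Leukocyte genes (green) are at 1.85 there and at -0.39 and -0.62 in the other tumour arrays.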

How the data were processed

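RNA of cultured lymphatic endothelial cells was measured on 6 arrays, 3 from tumours and 3 from normal skin. The authors deposited 1 log2 value for each of 45101 probe sets. The submitters' processing notes name RMA and GCRMA without saying which was used for this table. Both correct background and normalize between arrays, which can change the size of differences at low signal. No scanner files were used here, and the labels give no batch.

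Gene names came from the platform annotation held by GEO, with Entrez identifiers checked in a RefSeq table of GRCm38.p6. A single gene was listed for 34945 probe sets, several for 932 and none for 9160. Probe sets with a mean above the 40th percentile (2.71) were kept, the brightest per gene. The groups were compared with limma 3.58.1 in R 4.3.3 (lmFit, eBayes), two-sided, with Benjamini-Hochberg adjustment over all 12954 genes. The steps were tested on simulated data. An exact permutation test of 3 against 3 arrays has 0.1 as its smallest p and was not used. The number of arrays limits the precision.

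The members and gene lists were chosen with earlier results of these data known. All members are named; those with separate groups and a difference of at least 1, and the 2 brightest of each role, have their values given, as do others chosen after their values were seen. Of the other pathway lists, the genes with the smallest p in each direction are named, with the receptor chains, Stat2, Irf9, Irf7, Ifnb1 and some cell type markers always, and Oas1c, Cgas, Sting1, Foxc2 and Nr2f2 chosen after their values were seen. The alternatives are given in the closing part.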

Additional observations from a re-analysis of the deposited data

Results flagged for a closer look

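The probe set annotated to both Isg15, the ubiquitin-like modifier, and Gm9706 entered no comparison above because it cannot be assigned to 1 gene. It carried signal far above background on all arrays, with 9.30, 8.01 and 10.80 in normal replicates 1, 2 and 3 and 11.47, 10.14 and 10.55 in tumour replicates 1, 2 and 3. The mean difference was 1.35, the groups overlapped through normal replicate 3, and no test was made.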

How the results depend on the processing

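The absence of calls among the effectors held in 14 of the 15 alternative fits, and with array quality weights 2 genes passed, Sp100 (adjusted p = 0.0264) and Oas2 (adjusted p = 0.0345). The median difference stayed positive in all of them, between 0.80 (without tumour replicate 1) and 1.63 (without normal replicate 3). Upward separation was found for 16 to 28 genes, the 16 among 30 tested without probe sets ending in _x_at, _s_at or _a_at. Fits that tested all 36 gave 17 or more. Downward separation was found for 0 to 1, the 1 being Ifitm2 without tumour replicate 1. Leaving out an array can only add to these counts. Directions turned for 3 genes, whose main differences were 0.50 for Trim21, -0.07 for Ifi27 and -0.14 for Ifitm2. Trim21 ranged from -0.13 (without normal replicate 2) to 0.84 when single arrays were left out, Ifi27 was 0.095 with array weights and ranged from -0.27 to 0.24 over the same omissions, and Ifitm2 ranged from -0.48 to 0.11. The longer promoter motif gave 13.3% of genes in place of 46.7%. With the replicate number as a block, 0 effectors and 46 of all genes passed, against 28 without it, and no effector call changed. Whether same-numbered arrays belong together is not known. Deviations of same-numbered arrays correlated at 0.19, 0.33 and -0.004 for replicates 1, 2 and 3. The arrays of replicates 1 and 2 correlated best with their own number, and those of replicate 3 did not. With 3 arrays per group these correlations cannot decide the question. Calls over all genes numbered 10 with no filter, 97 with a 60th percentile filter, 385 with array weights, and from 4 to 82 when single arrays were left out. The cause of these changes was not tested.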
